A study of Mus musculus with 43 samples.

Results

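The comparison set 5 samples of CD4 T cells that had met persisting antigen at an intermediate dose until day 30 after transfer (titled d30 int) against 5 samples of the same cells whose antigen had been withdrawn early (titled d30 none). The members were these 10 of the 43 arrays of the series, chosen by their titles, and were described across 22180 genes with 1 probe set each. All donor cells were AND TCR transgenic, CD45.1+ and Rag2o/o, so that every cell carried the same receptor for a moth cytochrome c (MCC) peptide. Both groups had iMCC recipients, mice with a pair of transgenes through which doxycycline in the drinking water turns on an invariant chain carrying the MCC peptide in place of CLIP in dendritic cells. Both also had an anti-CD40 antibody, which activates dendritic cells, 1 day before the transfer, and both drank doxycycline at 100 µg/ml from then to day 3. The int group stayed on 100 µg/ml until day 30 and the none group drank 0 µg/ml from day 3. Per the labels, transferred cells become Th1 memory cells after such an early withdrawal. Cells were sorted as CD4+CD90.2+CD45.1+ on day 30, so that what was measured was the transferred population still present then. Whether the 5 samples of each group are separate animals is not stated in the labels. The p-values therefore reflect sample-to-sample spread that may be technical.

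A T cell that meets its peptide signals through the T cell receptor to calcium, NFAT, AP-1 and NF-kB, and the early genes that follow (the Egr and Nr4a families, Irf4) drive growth and cytokine production while also switching on brakes. When antigen is cleared, CD4 T cells of the Th1 type become resting memory cells that keep the IL-7 receptor and live on IL-7. When antigen persists, T cells instead hold inhibitory receptors such as PD-1, LAG-3, CTLA-4 and TIGIT and transcription factors such as Tox, Maf and Eomes, a state described as adaptation, anergy or exhaustion.

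Values are log2 signals of the deposited arrays, on which a difference of 1 is a 2-fold change, and differences are int minus none ± SE with limma's adjusted p over all genes. Unless another comparison is named, higher, lower, rose and fell describe int against none, not a change over time or from naive cells. The 5 naive arrays were of cells from day 3 after transfer, at 0 µg/ml doxycycline. They differ from int and none in day as well as in doxycycline, so that time and antigen cannot be told apart in comparisons with naive. The gene lists below share members and were fixed with earlier results of these data known, so that their shares are descriptions. The number of arrays (5 in each group) limits the precision; the median SE of a difference was 0.17. Array medians over all probe sets lay between 3.28 and 3.44. The labelled cell type matched its markers. Cd4, the CD4 co-receptor, had a level of 9.61 ± 0.19 (SD, n = 5) in int and 9.21 ± 0.27 in none. Cd3e, a chain of the receptor complex, was at 10.95 ± 0.08 and 10.59 ± 0.17, and Thy1, which encodes CD90, at 10.65 ± 0.13 and 10.8 ± 0.21. Rag2, the gene that the donors lack, lay at 2.64 ± 0.14 in int and 3.04 ± 0.29 in none, near the foot of the scale in all 10 arrays. None of these 4 genes was called different, with adjusted p from 0.0959 to 0.611.

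Persisting antigen went with a change in 491 genes, 2.21 % of those tested, of which 315 were higher in int (1.42 %) and 176 lower (0.794 %). Changes of at least 2-fold were found for 155 higher genes (0.699 %) and 61 lower genes (0.275 %), and of at least 4-fold for 38 and 8. The highest differences were those of Gzmk, Lag3, Tigit and Eomes, each over 4 log2 units, and the lowest were those of Il7r, Ly6c2 and Ifngr1. The median difference over all genes was -0.01. Every int array lay above every none array for 229 of the 315 higher genes, and below for 109 of the 176 lower genes; over all genes tested the groups failed to overlap in 402 (1.81 %) and 247 (1.11 %). The mean of none was under a log2 level of 4.5, taken here as dim, for 117 of the higher genes, and the mean of int for 88 of the lower ones. With the 10 arrays alone in the model, 292 genes were called, 202 higher and 90 lower. Since these are bulk samples, fewer cells that express a gene and less RNA per cell cannot be told apart.

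**Figure D1:**
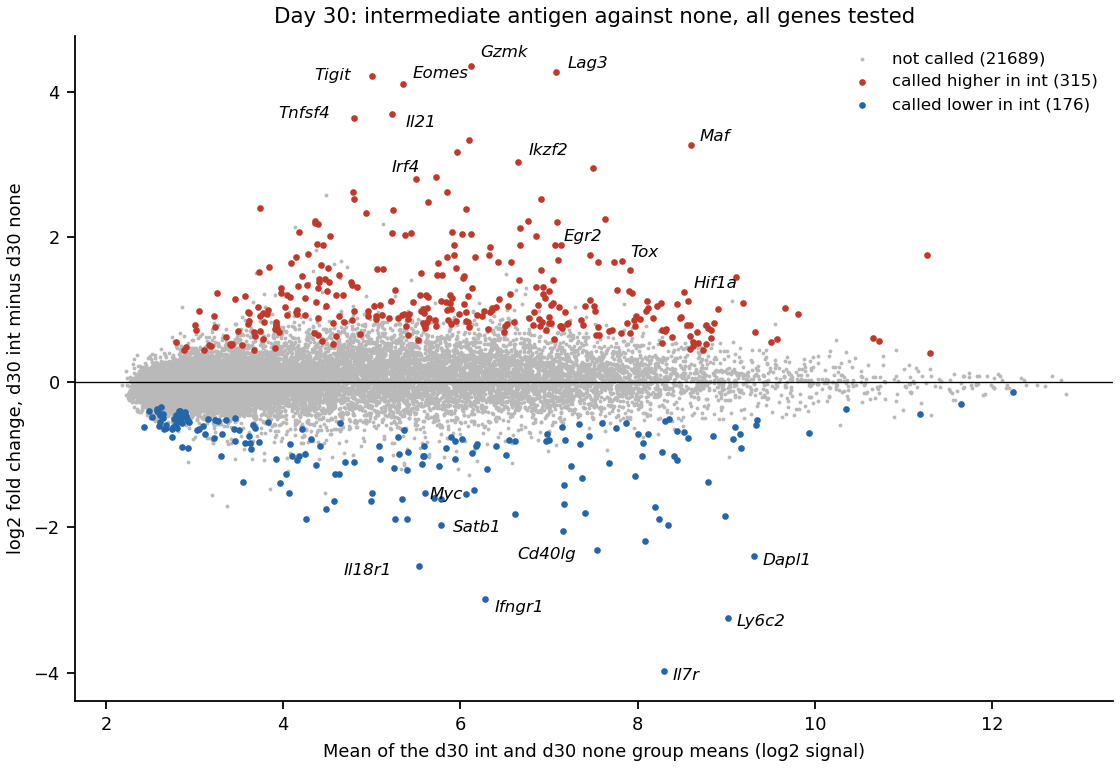
Log2 difference between d30 int and d30 none (vertical axis) against the mean log2 level of the 2 groups (horizontal axis) for all 22180 genes, 1 point per gene, with called genes in colour (315 higher in red, 176 lower in blue). Gzmk, Lag3, Tigit and Eomes stand at the top and Il7r, Ly6c2 and Ifngr1 at the bottom, and several of the strongest changes are in genes of middle or high level.

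Inhibitory receptors were higher in int for 5 of 21 measured members and lower for 1, with a median difference of 0.23 over the list. Lag3, a receptor that binds MHC class II and restrains CD4 T cells, had levels of 9.19, 9.28, 9.04, 9.21 and 9.37 in the int arrays and 5.42, 4.17, 5.55, 4.18 and 5.41 in the none arrays, a difference of 4.27 ± 0.42 (adjusted p = 3.06e-09) or 19.3-fold. The int arrays of Lag3 were within 0.4 log2 units of each other and far above the none arrays, which fell into a higher and a lower set. For Tigit, a receptor that competes with CD226 for CD155, the levels were 7.07, 7.01, 7.63, 7.17 and 6.7 in int and 2.57, 3.23, 2.42, 2.67 and 3.56 in none. The Tigit difference was 4.23 ± 0.4 (adjusted p = 1.03e-09). The highest none array of Tigit lay more than 3 log2 units below the lowest int array. Ctla4, which takes CD80 and CD86 away from CD28, was at 7.17, 6.59, 7.3, 7.23 and 6.88 in int and 4.97, 5.0, 4.55, 5.01 and 5.45 in none. The Ctla4 difference was 2.04 ± 0.23 (adjusted p = 3.53e-08), again without overlap. Cd200, a ligand for a myeloid inhibitory receptor, rose by 1.66 ± 0.27 (adjusted p = 7.33e-05). Pdcd1, which encodes PD-1, was at 5.49, 6.79, 6.67, 6.79 and 5.82 in int and 4.78, 4.28, 4.58, 4.6 and 5.81 in none. The Pdcd1 difference was 1.5 ± 0.33 (adjusted p = 0.00441), and here none replicate 5 lay within the range of int, so that the groups overlapped. Cd96, a further receptor for CD155, fell by 0.9 ± 0.18 (adjusted p = 0.0015), opposite to Tigit. The receptors Havcr2 (TIM-3), Btla and Cd160 were among the 15 members that were not called.

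Genes induced early by T cell receptor signals were higher for 10 of 30 and lower for 1, with a median difference of 0.61. Irf4, a transcription factor that scales with receptor signal strength, was at 7.44, 6.67, 6.74, 7.41 and 7.45 in int and 3.38, 5.1, 4.41, 4.04 and 4.6 in none. The Irf4 difference was 2.84 ± 0.29 (adjusted p = 4.57e-09) or 7.14-fold. Egr2, a transcription factor of early activation and of anergy, was at 7.96, 8.22, 7.76, 8.16 and 7.95 in int and 5.96, 6.11, 6.16, 6.62 and 5.77 in none. The Egr2 difference was 1.89 ± 0.29 (adjusted p = 2.65e-05). Nr4a1, which encodes the orphan receptor Nur77 and is widely used as a reporter of recent receptor signals, was at 6.89, 8.02, 7.73, 7.84 and 7.91 in int and 5.92, 6.32, 6.39, 5.88 and 6.15 in none. The Nr4a1 difference was 1.55 ± 0.28 (adjusted p = 0.000333). In Nr4a1 int replicate 1 lay about 0.8 below the next int array and still above every none array. Tnfrsf4, the costimulatory receptor OX40, rose by 1.89 ± 0.28 (adjusted p = 1.55e-05), and Spry1, a brake on Ras and MAP kinase signals, by 1.42 ± 0.24 (adjusted p = 0.000168). Myc, which drives growth and nutrient use and is also an early receptor target, went the other way: its levels were 5.09, 5.85, 5.74, 5.16 and 5.23 in int and 7.09, 6.96, 7.11, 6.91 and 6.41 in none, a difference of -1.48 ± 0.25 (adjusted p = 0.000158) with no overlap. Fos, an AP-1 subunit that also answers to handling of cells, was not called (0.83 ± 0.33, adjusted p = 0.234). Against the naive arrays, Nr4a1 was lower in none (-2.33 ± 0.28, adjusted p = 9.26e-08) and not called in int (-0.78 ± 0.28, adjusted p = 0.113). Irf4 (2.14 ± 0.29, adjusted p = 6.7e-07) and Egr2 (1.25 ± 0.29, adjusted p = 0.00458) were higher in int than in naive.

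Of 22 measured genes tied to anergy, 9 were higher and 0 lower, although the median of the list was only 0.23. Besides Lag3, Egr2 and Cd200 they held Nt5e, which encodes CD73 and makes adenosine outside the cell (2.22 ± 0.3, adjusted p = 2.06e-06). They also held Nrp1, a co-receptor for semaphorins (1.31 ± 0.25, adjusted p = 0.000789), Tnfaip3, the NF-kB brake A20 (1.16 ± 0.25, adjusted p = 0.00391), and Nfatc1 (1.02 ± 0.21, adjusted p = 0.00216). The ubiquitin ligases of this list, Cblb (-0.03), Itch (0.17) and Rnf128 (0.12), were not called.

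Transcription factors known from exhausted T cells gave the highest share of higher members of any list, 11 of 17, with 0 lower and a median difference of 1.34. As the lists were fixed with earlier results of these data known, this rank is a description and no test. Eomes, a T-box factor of cytotoxic and exhausted T cells, was at 6.4, 8.49, 7.57, 7.46 and 7.14 in int and 3.33, 3.5, 3.41, 2.92 and 3.36 in none. The Eomes difference was 4.11 ± 0.48 (adjusted p = 8.5e-08) or 17.2-fold. Maf, which drives IL-10 and IL-21, was at 10.62, 10.0, 10.38, 9.57 and 10.59 in int and 6.62, 7.94, 5.49, 8.42 and 6.36 in none. The Maf difference was 3.27 ± 0.46 (adjusted p = 5.32e-06). The none arrays of Maf spread over almost 3 log2 units (SD 1.2), against an SD of 0.45 in int, and did not reach the int arrays. Ikzf2, which encodes Helios, was at 8.4, 8.35, 7.81, 8.06 and 8.2 in int and 4.56, 5.21, 4.96, 5.69 and 5.22 in none. The Ikzf2 difference was 3.04 ± 0.38 (adjusted p = 5.17e-07). Tox, a DNA-binding factor required for the exhausted state of CD8 T cells, was at 8.19, 8.69, 8.43, 9.04 and 8.93 in int and 7.0, 6.42, 6.8, 7.46 and 7.26 in none. The Tox difference was 1.67 ± 0.2 (adjusted p = 2.37e-07). Nfil3, a leucine zipper factor that induces inhibitory receptors (1.9 ± 0.28, adjusted p = 9.74e-06), was higher as well. Bhlhe40, a factor of cytokine-producing T cells, was called (1.38 ± 0.36, adjusted p = 0.0253), but the call was lost without int replicate 2, 4 or 5 or none replicate 1 or 4 (adjusted p up to 0.0715). Prdm1, which encodes Blimp-1, and Batf were not called, at differences of -0.15 and 0.1, nor was Id2 at 0.49. Against the naive arrays, Ikzf2 was not called in int (-0.82 ± 0.38, adjusted p = 0.294) and was lower in none (-3.85 ± 0.38, adjusted p = 7.77e-10). Eomes was above naive in int (2.24 ± 0.48, adjusted p = 0.00164) and below it in none (-1.87 ± 0.48, adjusted p = 0.0138). The naive arrays of Tox, at 8.02, 8.42, 8.17, 8.07 and 8.37, lay above every none array. Those of Maf, at 3.85, 3.03, 3.29, 3.19 and 4.95, lay below every none array.

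**Figure D2:**
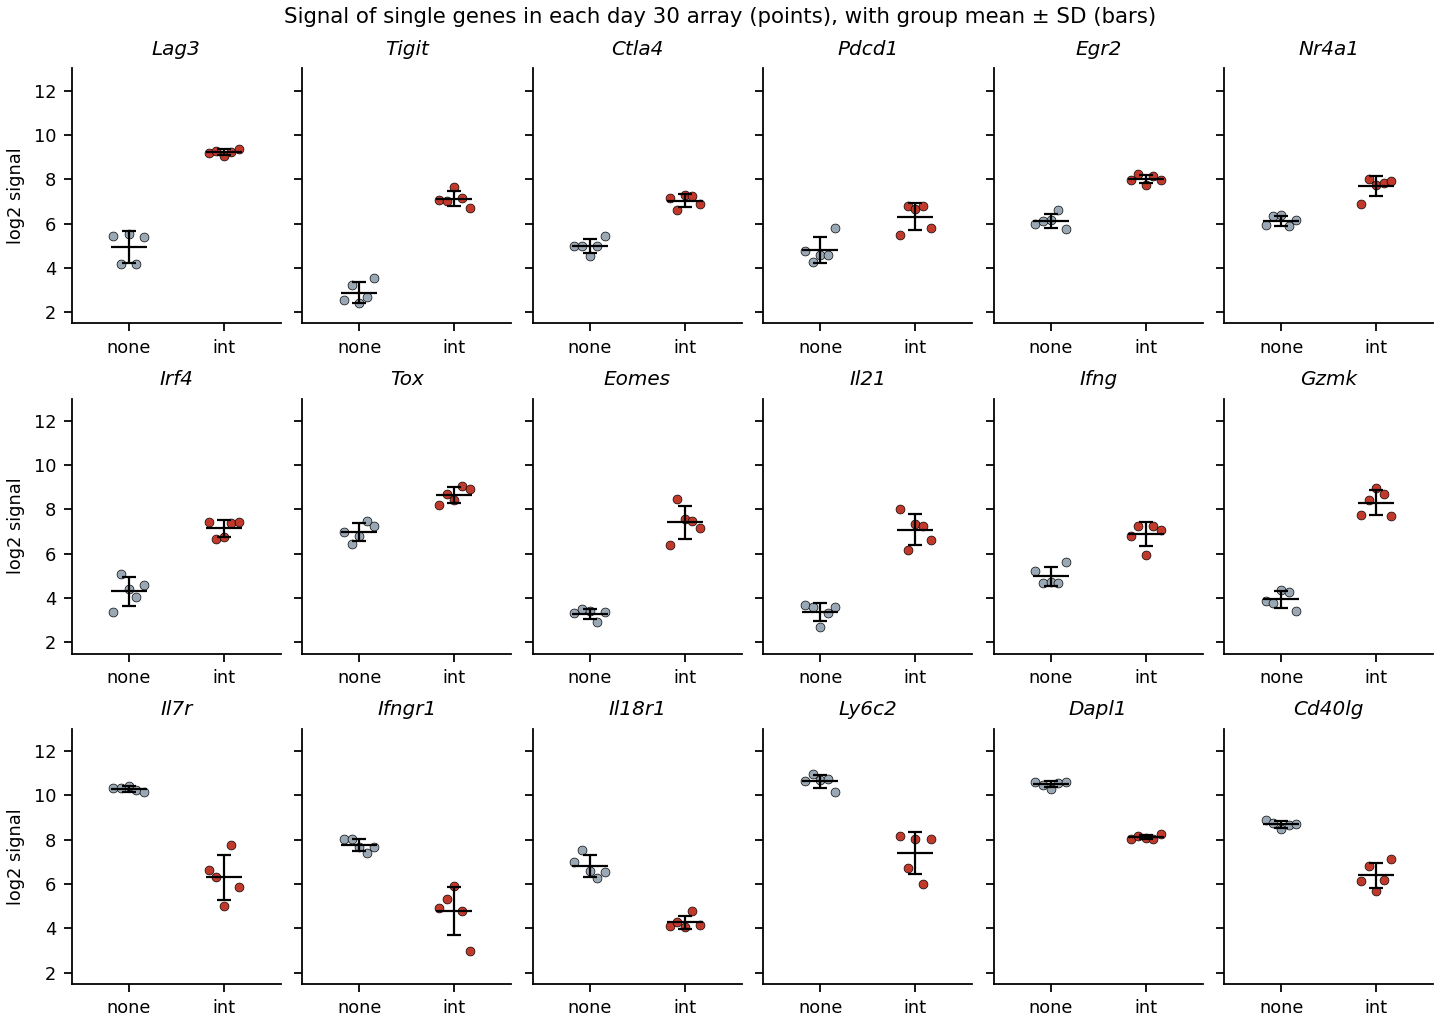
Log2 signal (vertical axis, the same in every panel) of 18 genes in each of the 5 d30 none arrays (grey) and 5 d30 int arrays (red), with group means and SD as bars. The genes of the upper and middle panels are higher in int and those of the lower panels lower, and Pdcd1 is the gene among them whose groups overlap.

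Genes of T follicular helper (Tfh) cells, which help B cells in follicles, were higher for 12 of 19 and lower for 2 (median 0.85). Il21, their main cytokine, was at 8.03, 6.19, 7.33, 7.23 and 6.63 in int and 3.68, 3.59, 2.71, 3.35 and 3.59 in none. The Il21 difference was 3.7 ± 0.41 (adjusted p = 4.27e-08) or 13-fold. Bcl6, their defining repressor, was at 7.7, 7.64, 7.32, 7.09 and 7.8 in int and 6.45, 6.54, 6.17, 5.49 and 6.33 in none. The Bcl6 difference was 1.31 ± 0.27 (adjusted p = 0.0023). The follicle-homing receptor Cxcr5 was at 8.83, 8.96, 8.99, 9.07 and 9.06 in int and 7.5, 8.1, 7.29, 8.13 and 8.5 in none, a difference of 1.08 ± 0.24 (adjusted p = 0.00646). In all 3 genes every int array lay above every none array. The coactivator Pou2af1 rose by 1.48 ± 0.34 (adjusted p = 0.00679). The 2 members that fell were Cd40lg and Il6st, a signalling chain of the IL-6 receptor (-0.71 ± 0.13, adjusted p = 0.000412). Cd40lg, the ligand through which helper cells act on B cells and dendritic cells, was at 6.12, 6.8, 5.69, 6.2 and 7.13 in int and 8.89, 8.77, 8.46, 8.68 and 8.69 in none. The Cd40lg difference was -2.31 ± 0.23 (adjusted p = 3.56e-09).

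Of 26 helper cytokine and chemokine genes 7 were higher and 0 lower. Ifng, the Th1 cytokine interferon gamma, was at 6.81, 7.27, 5.96, 7.27 and 7.06 in int and 5.23, 4.7, 4.72, 4.66 and 5.62 in none. The Ifng difference was 1.89 ± 0.34 (adjusted p = 0.000322), without overlap. Cxcl10, a chemokine induced by interferon gamma, rose by 2.38 ± 0.43 (adjusted p = 0.000393), and Penk, the precursor of enkephalins, by 1.73 ± 0.35 (adjusted p = 0.00155). Il10, a cytokine that restrains antigen-presenting cells, was at 3.76, 4.49, 5.86, 5.9 and 3.18 in int and 2.55, 2.99, 3.31, 3.49 and 2.92 in none. The Il10 difference was 1.59 ± 0.4 (adjusted p = 0.0181), with int replicates 3 and 4 high and int replicate 5 within the range of none; the call was lost without int replicate 3 or 4 or none replicate 1 (adjusted p up to 0.0984). Tnf, an inflammatory cytokine, passed the threshold narrowly (0.88 ± 0.25, adjusted p = 0.0494), and the call was lost without int replicate 1, 2, 4 or 5 or none replicate 2, 3, 4 or 5 (adjusted p up to 0.133). Il2, the T cell growth factor, was at 2.67, 3.38, 3.45, 2.99 and 3.12 in int and 3.27, 3.53, 6.45, 3.4 and 4.27 in none. The Il2 difference was -1.06 ± 0.44 (adjusted p = 0.26); it was not called, and none replicate 3 stood far above the other 9 arrays. Ccl3 and Ccl4, chemokines of activated T cells, had differences of 2.14 (adjusted p = 0.0874) and 1.59 (adjusted p = 0.0605) and were not called.

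The Treg and Tr1 list, genes of regulatory T cells and of IL-10 producing Foxp3-negative cells, had 9 of 22 members higher and 0 lower (median 0.61). Foxp3 itself was at 3.18, 3.81, 5.22, 3.21 and 4.02 in int and 3.51, 3.4, 4.01, 3.71 and 4.06 in none. The Foxp3 difference was 0.15 ± 0.26 (adjusted p = 0.871), and int replicate 3 alone was above 5. Called members were Maf, Ikzf2, Nt5e, Ctla4 and Nrp1, which were described above, and Itgb8, an integrin chain that activates TGF-beta, at 4.42, 5.21, 5.02, 6.59 and 4.55 in int and 3.09, 3.63, 3.57, 3.08 and 3.6 in none. The Itgb8 difference was 1.76 ± 0.25 (adjusted p = 6.93e-06). Il2ra, the high-affinity IL-2 receptor chain CD25, rose by 1.17 ± 0.3 (adjusted p = 0.0205), with overlap between the groups, and the call was lost without int replicate 1, 2 or 3 or none replicate 4 (adjusted p up to 0.0887). Of 16 genes of Th2 and Th17 cells 14 were under 4.5 in all 10 arrays, 0 were higher and 1 was lower. This was Il4ra, a chain of the IL-4 receptor (-0.81 ± 0.21, adjusted p = 0.0218), and the call was lost without int replicate 1, 3 or 5 or none replicate 1 or 4 (adjusted p up to 0.0567).

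Cytotoxic genes were split, with 5 of 20 higher, 1 lower and a median of -0.05. Gzmk, a granzyme of memory and exhausted cells, had the highest difference of all genes tested: 7.77, 8.41, 8.95, 8.68 and 7.7 in int against 3.89, 3.78, 4.37, 4.26 and 3.43 in none. The Gzmk difference was 4.36 ± 0.38 (adjusted p = 1.74e-10) or 20.5-fold. Slamf7, a surface receptor of the SLAM family, was at 8.1, 9.95, 9.0, 9.08 and 8.75 in int and 6.56, 6.35, 5.3, 6.53 and 5.4 in none. The Slamf7 difference was 2.95 ± 0.49 (adjusted p = 9.45e-05). Crtam, an adhesion receptor of cytotoxic CD4 cells (2.04 ± 0.35, adjusted p = 0.00016), Cst7, an inhibitor of granule proteases (1.45 ± 0.22, adjusted p = 1.85e-05), and Srgn, the granule proteoglycan (0.45 ± 0.11, adjusted p = 0.0149), rose as well. Ctsw, a granule protease, fell (-1.38 ± 0.21, adjusted p = 3.05e-05). The killing molecules Gzma (-0.08), Prf1 (-0.11) and Fasl (0.00) were not called, and neither was Gzmb at 1.21 (adjusted p = 0.0566).

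Th1 genes moved both ways, with 4 of 24 higher, 5 lower and a median of -0.03. Tbx21, which encodes T-bet, the factor that defines Th1 cells, was at 7.73, 7.23, 6.74, 7.06 and 7.37 in int and 6.64, 6.6, 7.18, 6.38 and 5.33 in none. The Tbx21 difference was 0.8 ± 0.24 (adjusted p = 0.0592); it was not called and the groups overlapped. Of the 5 members that fell, 3 were chains of cytokine receptors. Ifngr1, the ligand-binding chain of the interferon gamma receptor, was at 4.93, 5.33, 5.91, 4.79 and 2.99 in int and 8.05, 8.03, 7.67, 7.42 and 7.69 in none. The Ifngr1 difference was -2.98 ± 0.32 (adjusted p = 1.3e-08), with int replicate 5 lowest. Il18r1, which encodes the binding chain for IL-18, was at 4.09, 4.28, 4.06, 4.76 and 4.13 in int and 7.0, 7.55, 6.6, 6.27 and 6.55 in none. The Il18r1 difference was -2.53 ± 0.34 (adjusted p = 2.17e-06). Its partner Il18rap was at 3.42, 3.27, 3.24, 3.25 and 3.33 in int and 5.41, 4.23, 4.89, 4.91 and 4.72 in none. The Il18rap difference was -1.53 ± 0.31 (adjusted p = 0.00196). Ly6c2, which encodes the surface protein Ly6C of Th1 effector and memory cells, was at 8.18, 6.73, 8.02, 6.02 and 8.02 in int and 10.63, 10.95, 10.71, 10.75 and 10.14 in none. The Ly6c2 difference was -3.24 ± 0.46 (adjusted p = 5.68e-06). In each of these 4 genes all int arrays lay below all none arrays. Against the naive arrays, none was higher in Il18r1 (2.4 ± 0.34, adjusted p = 3.41e-06), Il18rap (1.7 ± 0.31, adjusted p = 0.000372), Ly6c2 (4.66 ± 0.46, adjusted p = 7.36e-10) and Ifngr1 (1.26 ± 0.32, adjusted p = 0.0117). Int was not called against naive in Il18r1 (-0.13 ± 0.34, adjusted p = 0.923), Il18rap (0.17 ± 0.31, adjusted p = 0.88) or Ly6c2 (1.41 ± 0.46, adjusted p = 0.0679). In Ifngr1 it was lower (-1.72 ± 0.32, adjusted p = 0.000205).

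Naive and central memory genes were lower for 4 of 22 and higher for 1, with a median of -0.28. Il7r, the IL-7 receptor chain that resting memory cells need to survive, had the lowest difference of all genes: 6.62, 6.31, 4.99, 7.76 and 5.88 in int against 10.31, 10.32, 10.44, 10.23 and 10.13 in none. The Il7r difference was -3.97 ± 0.42 (adjusted p = 1.07e-08), or 15.7-fold lower. The none arrays lay within 0.4 of each other (SD 0.12), while the int arrays spread from replicate 3 to replicate 4 (SD 1.02) and stayed over 2 log2 units below none. Dapl1, a small protein of resting T cells, was tight in both groups, at 8.05, 8.17, 8.08, 8.02 and 8.25 in int and 10.59, 10.47, 10.29, 10.57 and 10.62 in none. The Dapl1 difference was -2.39 ± 0.18 (adjusted p = 1.95e-12), the lowest adjusted p of all genes tested. Satb1, a chromatin organizer of thymocytes and naive T cells, was at 6.09, 5.83, 5.54, 4.8 and 6.29 in int and 7.6, 7.68, 7.63, 7.58 and 7.13 in none. The Satb1 difference was -1.81 ± 0.24 (adjusted p = 2.17e-06). Against the naive arrays, Il7r was higher in none (2.77 ± 0.42, adjusted p = 1.26e-05) and not called in int (-1.21 ± 0.42, adjusted p = 0.0964). Dapl1 (-2.45 ± 0.18, adjusted p = 8.95e-14) and Satb1 (-2.69 ± 0.24, adjusted p = 2.8e-11) were lower in int than in naive. Actn1, an actin crosslinker of naive cells, fell with overlap (-1.16 ± 0.23, adjusted p = 0.00122). Ets1, a transcription factor of resting lymphocytes, was higher (0.55 ± 0.14, adjusted p = 0.0229), although the call was lost without int replicate 1, 2 or 3 or none replicate 4 or 5 (adjusted p up to 0.0668). The exit and homing genes Klf2 (-0.3), S1pr1 (-0.65) and Ccr7 (-0.72 ± 0.26, adjusted p = 0.175) were not called.

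Among 26 cytokine receptors 6 fell and 3 rose. Besides Il7r, Ifngr1, Il18r1, Il18rap, Il4ra and Il6st, which fell, Il10ra, the ligand-binding chain of the IL-10 receptor, rose from 6.26 ± 0.38 in none to 7.95 ± 0.36 in int (1.69 ± 0.29, adjusted p = 0.000148). The IL-12 receptor chains Il12rb1 (-0.02) and Il12rb2 (-0.03), the shared IL-2 and IL-15 receptor chain Il2rb (0.43) and Il21r (0.32) were not called.

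Of 26 TNF superfamily ligands and receptors 7 were higher and 1, Cd40lg, was lower. Tnfsf4, the ligand OX40L, was at 7.11, 7.21, 7.02, 4.75 and 7.02 in int and 2.79, 3.13, 2.95, 2.44 and 3.56 in none. The Tnfsf4 difference was 3.65 ± 0.51 (adjusted p = 4.1e-06) or 12.5-fold; 4 int arrays lay near 7 and int replicate 4 stood apart below them, still above all none arrays. With Tnfrsf4 above, ligand and receptor of this pair were both higher. Fas, the death receptor (1.41 ± 0.3, adjusted p = 0.00383), and Tnfsf9, the ligand of 4-1BB (1.34 ± 0.29, adjusted p = 0.00417), rose as well. Among 31 chemokine and homing receptors 6 were higher and 2 lower. Cxcr4, which holds cells near CXCL12, was at 7.64, 8.21, 7.86, 7.86 and 7.7 in int and 5.94, 5.54, 6.3, 5.37 and 6.07 in none. The Cxcr4 difference was 2.01 ± 0.27 (adjusted p = 3.09e-06). Cd44, the hyaluronan receptor of antigen-experienced cells, rose by 0.77 ± 0.18 (adjusted p = 0.0117). Gpr183, the oxysterol receptor EBI2, fell with overlap (-0.77 ± 0.21, adjusted p = 0.0303), and the call was lost without int replicate 1, 4 or 5 or none replicate 1, 2 or 4 (adjusted p up to 0.144). Ccr4, a receptor of skin-homing cells, was dim in both groups (3.54 ± 0.38 and 2.56 ± 0.27), was called (0.99 ± 0.24, adjusted p = 0.0154), and the call was lost without int replicate 2 or 3 (adjusted p up to 0.0638).

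Of 30 feedback genes of MAP kinase and cytokine signals, 7 were higher and 2 lower. Rgs16 (2.13 ± 0.38, adjusted p = 0.000294) and Rgs1 (1.48 ± 0.3, adjusted p = 0.00155), which shorten chemokine receptor signals, rose. So did the adaptor Lax1 (1.26 ± 0.2, adjusted p = 4e-05) and the phosphatase Ubash3b (1.18 ± 0.22, adjusted p = 0.000516), both brakes on receptor signalling. Rgs10, a further regulator of G protein signals, fell (-0.75 ± 0.13, adjusted p = 0.000158). Socs3, which is induced by IL-6 family cytokines, was lower (-1.06 ± 0.28, adjusted p = 0.0317), but the call was lost without int replicate 2, 3 or 5 or none replicate 1, 4 or 5 (adjusted p up to 0.0906). Among 28 genes of the T cell receptor complex and its proximal signals 3 were higher and 2 lower, all by less than 2-fold. Fyn, a Src family kinase, rose by 0.86 ± 0.17 (adjusted p = 0.00149) and the costimulatory receptor Cd28 by 0.46 ± 0.11 (adjusted p = 0.0127), while Themis, a signalling protein of thymocyte selection, fell (-0.71 ± 0.15, adjusted p = 0.00358). Ppp3ca, a catalytic subunit of the phosphatase calcineurin that activates NFAT, was at 3.82, 4.19, 4.33, 5.17 and 4.8 in int and 6.57, 5.91, 6.7, 6.67 and 5.85 in none. The Ppp3ca difference was -1.88 ± 0.28 (adjusted p = 2.03e-05), while Nfatc1 was higher.

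Few genes of the division, metabolism and stress lists were called. Over all genes tested 1.42 % were higher and 0.794 % lower, so that low counts in lists of this size do not set them apart. Of the 7352 genes with an int or none mean of at least 4.5, 385 were called. Of the 14828 genes with both means under it, 106 were called. Lists of brighter genes therefore have a higher background than all genes tested. Of 51 cell cycle genes 1 was higher (1.96 %) and 0 were lower, 10 had an unadjusted p under 0.05, and 29 were under 4.5 in all 10 arrays. The call was that of Top2a, a topoisomerase of dividing cells (0.79 ± 0.2, adjusted p = 0.0181), and the call was lost without int replicate 2 or none replicate 1 or 5 (adjusted p up to 0.0886). Mki67, which marks dividing cells, was at 4.01, 3.69, 5.07, 3.71 and 3.91 in int and 3.88, 3.59, 3.6, 2.87 and 2.94 in none (0.7 ± 0.28, adjusted p = 0.232) and was not called. Of 28 glycolysis and nutrient uptake genes Hif1a, a transcription factor of the response to low oxygen, was the single call: 9.03, 9.27, 9.07, 9.27 and 9.09 in int against 7.86, 7.88, 8.0, 7.91 and 7.89 in none. The Hif1a difference was 1.24 ± 0.14 (adjusted p = 4.47e-08). Of 36 oxidative phosphorylation genes 0 were called by limma, with a median of 0.00 and differences from -0.38 (Ndufa9) to 0.49 (Ndufs1). In the lists of 14 heat-shock and 8 GIMAP genes 0 were called as well. Hspa1a, an inducible chaperone, differed by 2.19 ± 0.63 (adjusted p = 0.0518), and int replicate 4 lay far below the other int arrays. Hspa1a was called by limma when int replicate 4 or none replicate 5 was left out (adjusted p down to 0.000156). Unadjusted p under 0.05 was reached by 5 of the oxidative phosphorylation genes, 2 of the heat-shock genes and 2 of the GIMAP genes. The share of all genes tested under this unadjusted threshold is not given here. These counts and that of the cell cycle list therefore stand without a background. Interferon-stimulated genes had 0 higher and 1 lower of 32 (median -0.13); the call was that of Oas2, a sensor of double-stranded RNA (-1.14 ± 0.29, adjusted p = 0.0224), and the call was lost without int replicate 1 or 4 or none replicate 1, 2 or 5 (adjusted p up to 0.109). Of 29 chromatin enzymes Ezh2 (0.9 ± 0.2, adjusted p = 0.00629), Kdm5b (0.76 ± 0.15, adjusted p = 0.00135) and Kdm6b (1.01 ± 0.27, adjusted p = 0.0335) were higher. They write or remove methyl marks on histone H3, and for Kdm6b the call was lost without int replicate 1, 2, 4 or 5 or none replicate 1 or 4 (adjusted p up to 0.121). Ahnak and S100a4, of a list of 18 effector-memory S100, galectin and Ly6 genes with 3 higher and 1 lower, rose by 0.96 ± 0.25 (adjusted p = 0.0268) and 1.75 ± 0.36 (adjusted p = 0.00249); for Ahnak the call was lost without int replicate 1 or 3 or none replicate 2 or 4 (adjusted p up to 0.106). Of 23 NFAT and NF-kB genes 2 were higher and 2 lower, of 15 AP-1 genes 2 and 0 and of 15 KLF and tissue-exit genes 0 and 1. The counts were of 24 apoptosis genes 1 and 0, of 24 stress genes of unfolded protein and amino acid supply 1 and 0 and of 22 cholesterol and fatty acid genes 0 and 1.

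**Figure D3:**
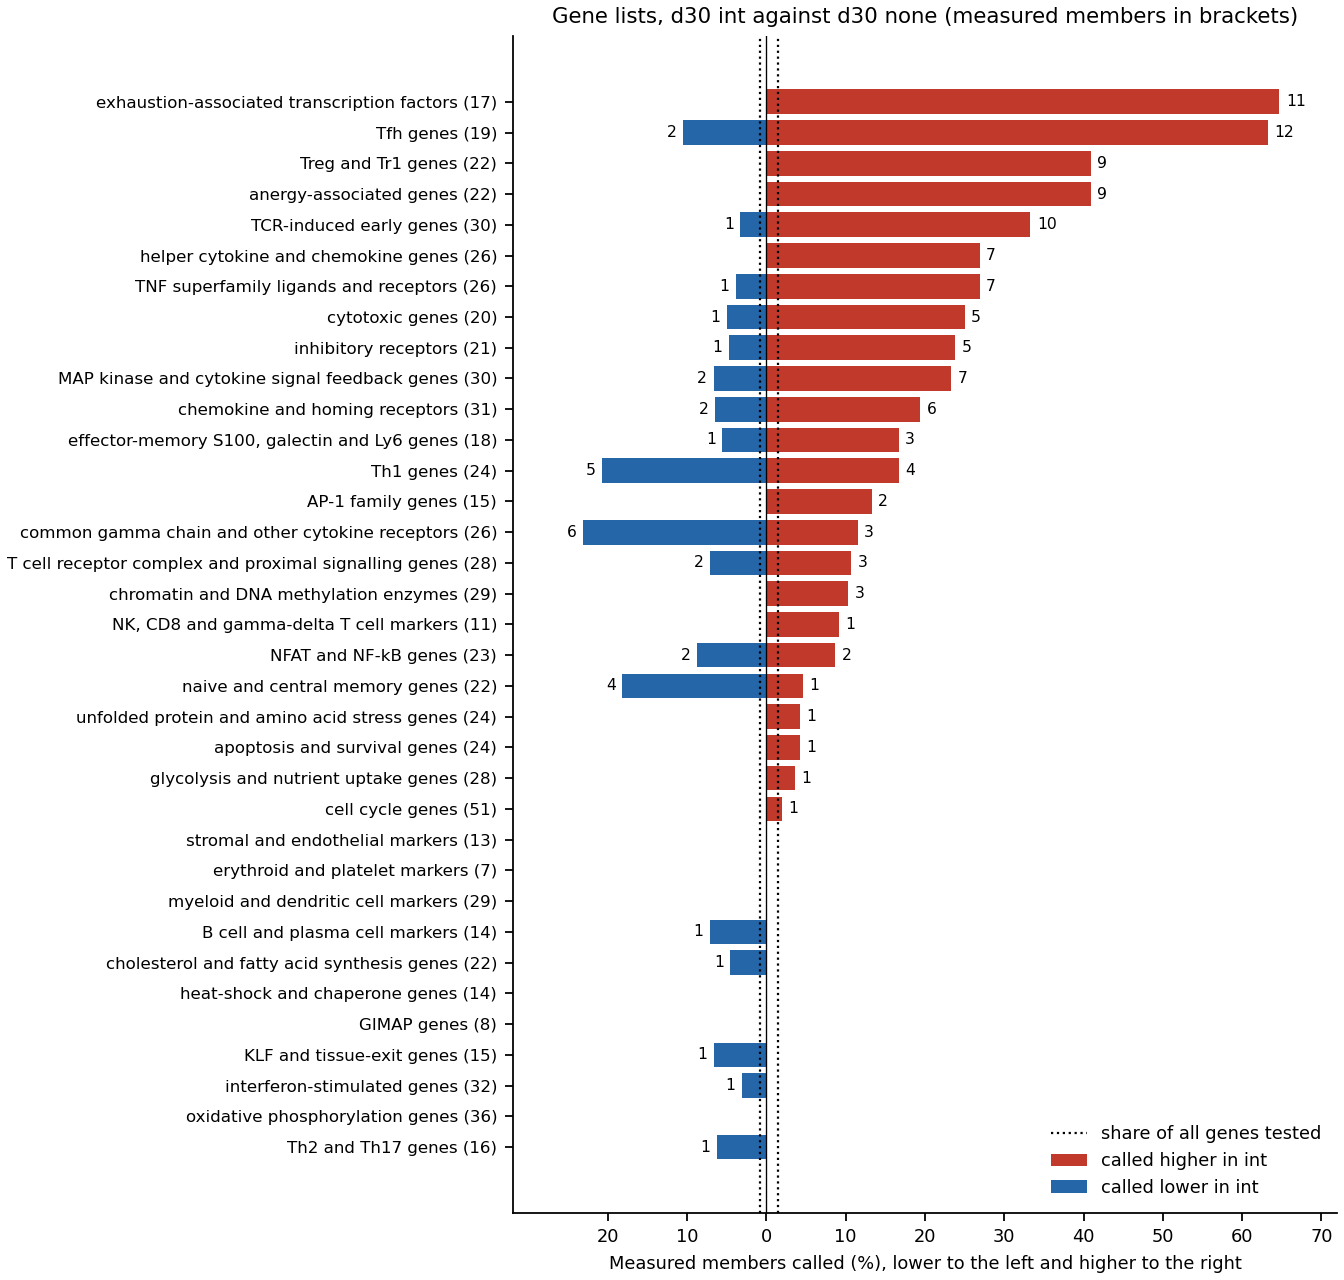
Share of the measured members of each of 35 gene lists that were called higher in d30 int (red, to the right) or lower (blue, to the left), with the number of members called beside each bar and the shares over all genes tested (1.42 % and 0.794 %) as dotted lines. Exhaustion-associated factors (11 of 17) and Tfh genes (12 of 19) have the highest shares of higher members, and oxidative phosphorylation, GIMAP and heat-shock genes have no bar. The lists share members and were fixed with earlier results of these data known, so that the shares are descriptions. The dotted lines include dim genes, which were called less often than brighter ones.

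The strongest changes also included genes outside these lists. Gpm6b, a membrane glycoprotein best known from neurons, was at 8.36, 7.52, 6.99, 7.21 and 7.68 in int and 4.49, 4.37, 4.03, 3.99 and 5.0 in none. The Gpm6b difference was 3.18 ± 0.37 (adjusted p = 6.95e-08). Ptger2, the prostaglandin E2 receptor EP2, which raises cyclic AMP, was at 6.17, 7.03, 6.91, 7.13 and 7.15 in int and 4.18, 4.72, 4.74, 4.06 and 4.29 in none. The Ptger2 difference was 2.48 ± 0.31 (adjusted p = 5.17e-07). Pde3b, a phosphodiesterase that breaks cyclic AMP down, went the other way, at 5.15, 5.72, 5.16, 3.37 and 4.59 in int and 6.66, 6.78, 7.24, 6.97 and 6.14 in none. The Pde3b difference was -1.96 ± 0.32 (adjusted p = 6.39e-05). Sox4, a transcription factor of TGF-beta signals, was called (2.62 ± 0.43, adjusted p = 7.88e-05) on int arrays that spread widely, at 5.19, 7.69, 7.95, 5.8 and 3.87, against 3.76, 3.18, 3.35, 3.58 and 3.53 in none. Sox4 was below the naive arrays in int (-1.85 ± 0.43, adjusted p = 0.00456) and in none (-4.47 ± 0.43, adjusted p = 4.5e-10). Prelid2 (2.62 ± 0.42, adjusted p = 4.85e-05) was also higher in int than in none. Pdlim1, a cytoskeletal adaptor, was lower (-2.05 ± 0.31, adjusted p = 2.15e-05). So were the interferon-related Ifit1bl1 (-1.97 ± 0.34, adjusted p = 0.000172), Trim30c (-1.88 ± 0.32, adjusted p = 0.00012) and Epsti1 (-1.88 ± 0.23, adjusted p = 2.31e-07). Further lower genes were the mitochondrial Dnajc15 (-1.84 ± 0.26, adjusted p = 4.39e-06) and the granule adaptor Sytl2 (-1.75 ± 0.24, adjusted p = 2.73e-06). Kcnma1, a potassium channel, was among the brightest genes, at 12.59, 12.43, 11.15, 12.01 and 12.57 in int and 10.69, 9.89, 10.03, 10.48 and 10.86 in none. The Kcnma1 difference was 1.76 ± 0.2 (adjusted p = 4.52e-08).

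Promoter bases are shown for 6 of the genes described above, for comparison of the sequences in front of genes that rose and fell; those of Lag3, Tigit, Tnfrsf4, Egr2 and Nr4a1 are not shown. RefSeq's table (GRCm38.p6) held 300-base windows, 250 before to 50 after a transcript start, for 16990 of the 22180 genes. Printed are the upstream bases outside annotated genes, 5′ to 3′ on the gene's strand, of the inhibitory receptor or early genes Irf4 (chr13:30748983-30749232, + strand), Ctla4 (chr1:60908775-60909024, +), Cd200 (chr16:45409061-45409303, - strand) and Pdcd1 (chr1:94052554-94052803, -), which rose, and of Il7r (chr15:9529942-9530126, -) and Ifngr1 (chr10:19591699-19591948, +), which fell. Capitals mark motif matches.
Irf4: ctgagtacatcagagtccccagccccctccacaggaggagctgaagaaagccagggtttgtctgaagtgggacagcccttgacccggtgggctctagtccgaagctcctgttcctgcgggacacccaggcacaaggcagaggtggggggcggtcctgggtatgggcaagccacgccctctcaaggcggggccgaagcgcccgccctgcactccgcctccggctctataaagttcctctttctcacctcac
Ctla4: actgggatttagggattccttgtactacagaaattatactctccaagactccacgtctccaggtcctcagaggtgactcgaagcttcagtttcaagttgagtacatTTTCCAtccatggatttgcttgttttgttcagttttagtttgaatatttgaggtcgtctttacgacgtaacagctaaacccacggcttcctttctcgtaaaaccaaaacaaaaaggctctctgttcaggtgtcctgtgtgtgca
Cd200: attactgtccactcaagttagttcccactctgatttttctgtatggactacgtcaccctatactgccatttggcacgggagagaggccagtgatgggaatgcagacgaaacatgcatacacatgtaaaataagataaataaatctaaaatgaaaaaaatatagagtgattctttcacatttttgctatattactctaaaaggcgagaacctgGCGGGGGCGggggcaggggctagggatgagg
Pdcd1: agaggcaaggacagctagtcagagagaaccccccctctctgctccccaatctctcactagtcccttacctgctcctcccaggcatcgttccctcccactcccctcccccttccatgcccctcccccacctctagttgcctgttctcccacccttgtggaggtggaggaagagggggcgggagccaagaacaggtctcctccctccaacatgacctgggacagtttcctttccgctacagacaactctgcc
Il7r: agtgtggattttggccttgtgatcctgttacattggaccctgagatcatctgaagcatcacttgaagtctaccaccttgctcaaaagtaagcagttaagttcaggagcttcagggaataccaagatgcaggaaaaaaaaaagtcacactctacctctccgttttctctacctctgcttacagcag
Ifngr1: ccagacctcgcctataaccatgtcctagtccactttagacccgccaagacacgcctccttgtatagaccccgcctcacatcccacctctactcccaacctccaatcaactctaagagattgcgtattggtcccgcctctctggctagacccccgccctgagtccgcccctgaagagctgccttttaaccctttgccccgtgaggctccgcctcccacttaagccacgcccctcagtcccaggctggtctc
The motifs searched on both strands were AP-1 (TGANTCA), CRE (TGACGTCA), EGR (GCGNGGGCG), NFAT (TGGAAA) and T-box (TCACACCT), where N is any base, next to the NF-kB and IRF consensus motifs. The printed bases held 1 NFAT match, in Ctla4 at 139 to 144 bases before the start, and 1 EGR match, in Cd200 at 30 to 38 bases before it, with no overlap of matches. Those of Irf4, Pdcd1, Il7r and Ifngr1 held 0.

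Over whole windows, the EGR motif was in 14.8 % of the 332 windows of genes that rose, 10.1 % of the 178 windows of genes that fell and 7.67 % of all 20611 windows. The NFAT motif was in 19.3 %, 19.7 % and 19.7 %, and AP-1 in 6.63 %, 6.18 % and 7.26 %. The CRE was in 3.61 % of windows of genes that rose, 0.562 % of those that fell and 2.32 % of all; for IRF the shares were 4.22 %, 5.06 % and 3.3 %. NF-kB and T-box matches were in under 3 % of each set. The EGR motif consists almost wholly of G and C, and the base composition of the windows was not compared; the shares are descriptions without a test.

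The effect of the intermediate dose was also measured on day 10, in 4 int and 5 none arrays, none of which enter the group means compared on day 30; all arrays share the model's estimate of the spread. The doses were as on day 30, 100 and 0 µg/ml after day 3. Of the 315 genes higher on day 30, 113 (35.9 %) were also higher on day 10, where they were 64.9 % of the 174 genes called higher (0.784 % of genes tested). Of the 176 lower genes, 36 (20.5 %) were also lower on day 10, or 35.3 % of the 102 called there (0.46 %), and 0 genes were called in opposite directions. The sign was the same on day 10 for 285 of the 315 (90.5 %) and 146 of the 176 (83 %). The share with the same sign over all genes tested is not given here, so that these shares stand without a background. Across the 22180 genes, which are not independent replicates, the effects of the 2 days had a Pearson r of 0.403 and a Spearman rho of 0.183. Over the 7352 genes with a day 30 group mean of at least 4.5, r was 0.504 and rho 0.331.

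The difference between the effects was tested as an interaction, and 20 genes passed (0.0902 %), 10 with a higher effect on day 30 (0.0451 %) and 10 with a lower one (0.0451 %). Day after transfer and sort series cannot be told apart in this test. Gzmk was higher with antigen on both days, by 1.63 ± 0.41 (adjusted p = 0.0254) on day 10 and by 4.36 on day 30, a difference of 2.73 ± 0.56 (adjusted p = 0.0222); the call was lost without day 10 int replicate 1 or 2 or day 10 none replicate 4 or day 30 int replicate 3 or day 30 none replicate 5 (adjusted p up to 0.115). Dapl1 was lower on both days, and more so on day 30 (-0.94 ± 0.19, adjusted p = 0.003 on day 10, interaction -1.46 ± 0.26, adjusted p = 0.00484). Il6st (0.36 ± 0.14, adjusted p = 0.319 on day 10, interaction -1.07 ± 0.19, adjusted p = 0.00484) and Rgs10 (0.29 ± 0.14, adjusted p = 0.511, interaction -1.04 ± 0.19, adjusted p = 0.00484) were lower with antigen on day 30 and not called on day 10. The same held for Atp1b1, a sodium pump subunit (0.05 ± 0.25, adjusted p = 0.999, interaction -1.68 ± 0.35, adjusted p = 0.0241), although the call was lost without day 10 int replicate 1 or 3 or day 10 none replicate 1 or 4 or day 30 int replicate 3 or 5 or day 30 none replicate 2 or 5 (adjusted p up to 0.11). For Kcnma1 (interaction 1.73 ± 0.29, adjusted p = 0.00475), the day 30 none arrays were the low ones. The day 10 none group was at 12.45 ± 0.11, the day 10 int group at 12.49 ± 0.18 and the day 30 off and low groups at 12.36 ± 0.13 and 12.21 ± 0.08. Hspa1a was lower with antigen on day 10 (-3.1 ± 0.67, adjusted p = 0.00544) and not called on day 30, with an interaction of 5.29 ± 0.92 (adjusted p = 0.00484). Fos was likewise lower on day 10 (-1.5 ± 0.35, adjusted p = 0.014), with an interaction of 2.33 ± 0.48 (adjusted p = 0.0241), where the call was lost without day 10 int replicate 2 or 4 or day 10 none replicate 2, 3 or 4 or day 30 int replicate 1, 2 or 3 or day 30 none replicate 2 (adjusted p up to 0.0842). Lag3, Irf4, Egr2 and Il7r had almost the same difference on both days. Their interactions were 0.15 ± 0.61 (adjusted p = 0.99), 0.01 ± 0.42 (adjusted p = 0.997), 0.06 ± 0.42 (adjusted p = 0.994) and 0.03 ± 0.61 (adjusted p = 0.997), with SE that leave room for a difference between the days.

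**Figure D4:**
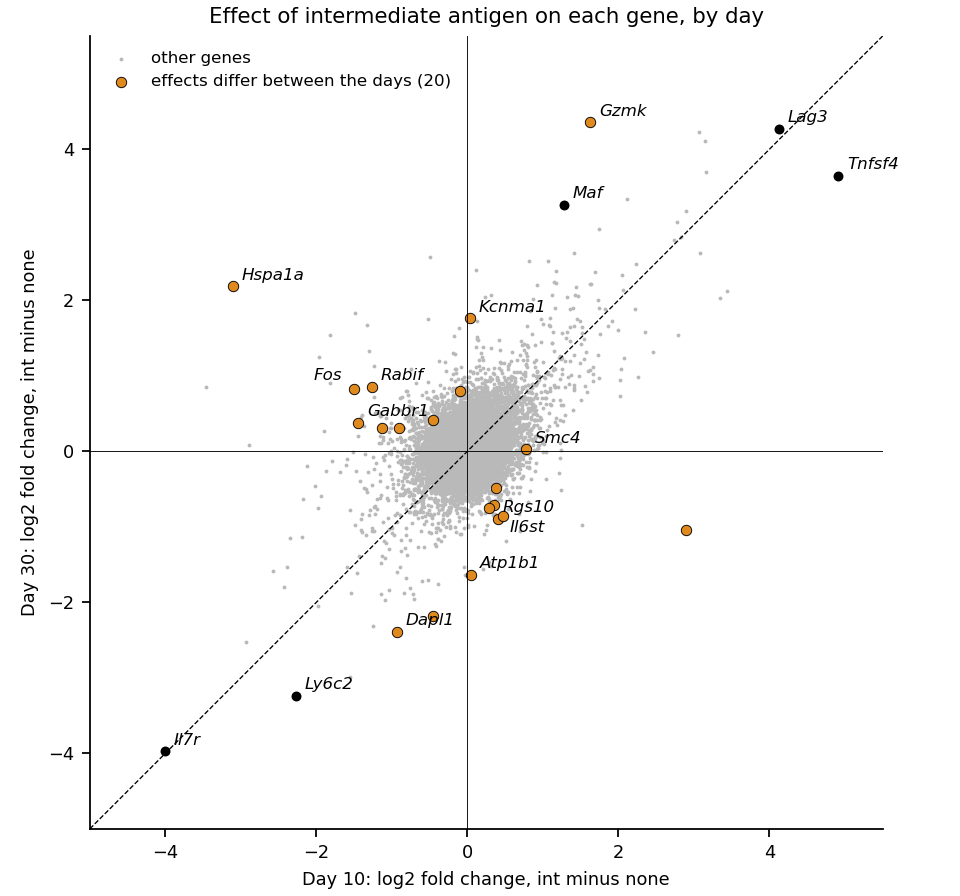
Log2 difference int minus none on day 30 (vertical axis) against that on day 10 (horizontal axis), 1 point per gene, with the 20 genes whose effects differed between the days in orange and 5 genes for orientation in black. The dashed line marks equal effects; Lag3 and Il7r lie on it, Gzmk above it and Dapl1 below it.

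Also on day 30, a low group that drank 10 µg/ml from day 3 and an off group that drank 100 µg/ml to day 10 and 0 µg/ml after it had 5 arrays each. Against low, int differed in 121 genes (0.546 %), 66 higher (0.298 %) and 55 lower (0.248 %), and against off in 103 genes (0.464 %), 44 higher (0.198 %) and 59 lower (0.266 %). Of the 315 genes that were higher in int than in none, 41 were also higher than in low and 36 than in off, and of the 176 lower genes 23 and 37 were lower; all 3 comparisons share the int arrays, so that these counts are not independent of each other. The count against low depended on single arrays: it was 67 without low replicate 3, 69 without int replicate 2, 72 without low replicate 1 and 78 without low replicate 4. The count against off was 53 without off replicate 5 and 66 without off replicate 4. With only the groups compared in the model, the counts were 45 and 35.

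The group means of Lag3 ran from none (4.95 ± 0.71) over off (6.66 ± 1.47) and low (7.39 ± 0.97) to int (9.22 ± 0.12), and int was above low (1.83 ± 0.42, adjusted p = 0.0254) and off (2.55 ± 0.42, adjusted p = 0.000419). Against low, the call was lost without low replicate 1 or 3 or int replicate 1, 2, 4 or 5 (adjusted p up to 0.131). The off arrays of Lag3 were split, at 8.09, 8.39, 5.98, 5.7 and 5.16, with replicates 1 and 2 highest and still below every int array. The off arrays of Eomes were split in the same way, at 6.75, 6.86, 4.27, 3.27 and 4.43, and replicates 1 and 2 lay within the range of int. Gzmk (2.61 ± 0.38, adjusted p = 0.000112 against low, 2.87 ± 0.38, adjusted p = 1.09e-05 against off) and Eomes (2.45 ± 0.48, adjusted p = 0.00534 and 2.3 ± 0.48, adjusted p = 0.0087) were higher in int than in either group, although for Eomes against off the call was lost without int replicate 2 or off replicate 4 or 5 (adjusted p up to 0.0788).

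Nr4a1 was higher in int than in off (1.75 ± 0.28, adjusted p = 0.000241) but was not called against low (0.62 ± 0.28, adjusted p = 0.493), and its off mean of 5.92 ± 0.4 was close to the none mean of 6.13 ± 0.23. Tnfsf4 (3.28 ± 0.51, adjusted p = 0.000178), Irf4 (2.03 ± 0.29, adjusted p = 3.79e-05) and Il21 (2.29 ± 0.41, adjusted p = 0.00157) were likewise higher than in off, and their differences from low were 1.71 ± 0.51 (adjusted p = 0.139), 1.08 ± 0.29 (adjusted p = 0.0776) and 1.32 ± 0.41 (adjusted p = 0.186). The off arrays of Il21 were split, at 6.49, 6.09, 3.18, 3.96 and 4.23, and replicate 1 lay within the range of int. Off replicates 1 and 2 were also the highest of off in Irf4, Tigit, Ikzf2 and Gpm6b. In Nr4a1 they were not both the highest. Maf was not called against either group (1.24 ± 0.46, adjusted p = 0.332 and 0.87 ± 0.46, adjusted p = 0.695); off minus none was 2.39 ± 0.46 (adjusted p = 0.00737). Klk1b27, a kallikrein, had the highest difference from off (3.93 ± 0.47, adjusted p = 1.02e-06), with 6.88, 7.82, 8.76, 6.54 and 6.33 in int, 3.1, 4.46, 3.2, 2.44 and 3.48 in off and 3.34, 5.52, 6.69, 5.58 and 5.91 in none; its call against none (1.86 ± 0.47, adjusted p = 0.0193) was made on overlapping groups, and the call was lost without int replicate 2 or 3 or none replicate 1 (adjusted p up to 0.118).

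Il7r was at 9.11, 8.82, 9.49, 7.33 and 7.31 in low and 9.98, 9.8, 10.42, 10.49 and 10.33 in off, so that int was below low (-2.1 ± 0.42, adjusted p = 0.00662) and below off (-3.89 ± 0.42, adjusted p = 1.38e-07), while off minus none was -0.08 ± 0.42 (adjusted p = 0.965). Ifngr1 (-1.88 ± 0.32, adjusted p = 0.000576 against low, -2.02 ± 0.32, adjusted p = 0.000196 against off) and Dapl1 (-1.05 ± 0.18, adjusted p = 0.000773 and -1.64 ± 0.18, adjusted p = 1.75e-07) were lower in int than in either. Rgs10 (-0.85 ± 0.13, adjusted p = 0.000115 and -0.7 ± 0.13, adjusted p = 0.00157) and Cd40lg (-1.61 ± 0.23, adjusted p = 9.34e-05 and -1.91 ± 0.23, adjusted p = 1.03e-06) were likewise lower. Ly6c2 was lower than in off (-2.94 ± 0.46, adjusted p = 0.000188) and was not called against low (-1.46 ± 0.46, adjusted p = 0.185). Mef2c, a transcription factor, had the lowest difference from low (-3.3 ± 0.2, adjusted p = 7.64e-16): its low arrays were at 7.76, 7.31, 6.18, 6.52 and 6.92, all above 6, and every int, none and off array was under 4.5. The receptors Klrd1 (-2.55 ± 0.41, adjusted p = 0.000344) and Klrk1 (-2.14 ± 0.41, adjusted p = 0.00402) of NK and CD8 cells and Il2 (-2.33 ± 0.44, adjusted p = 0.00376) were also lower in int than in low.

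**Figure D5:**
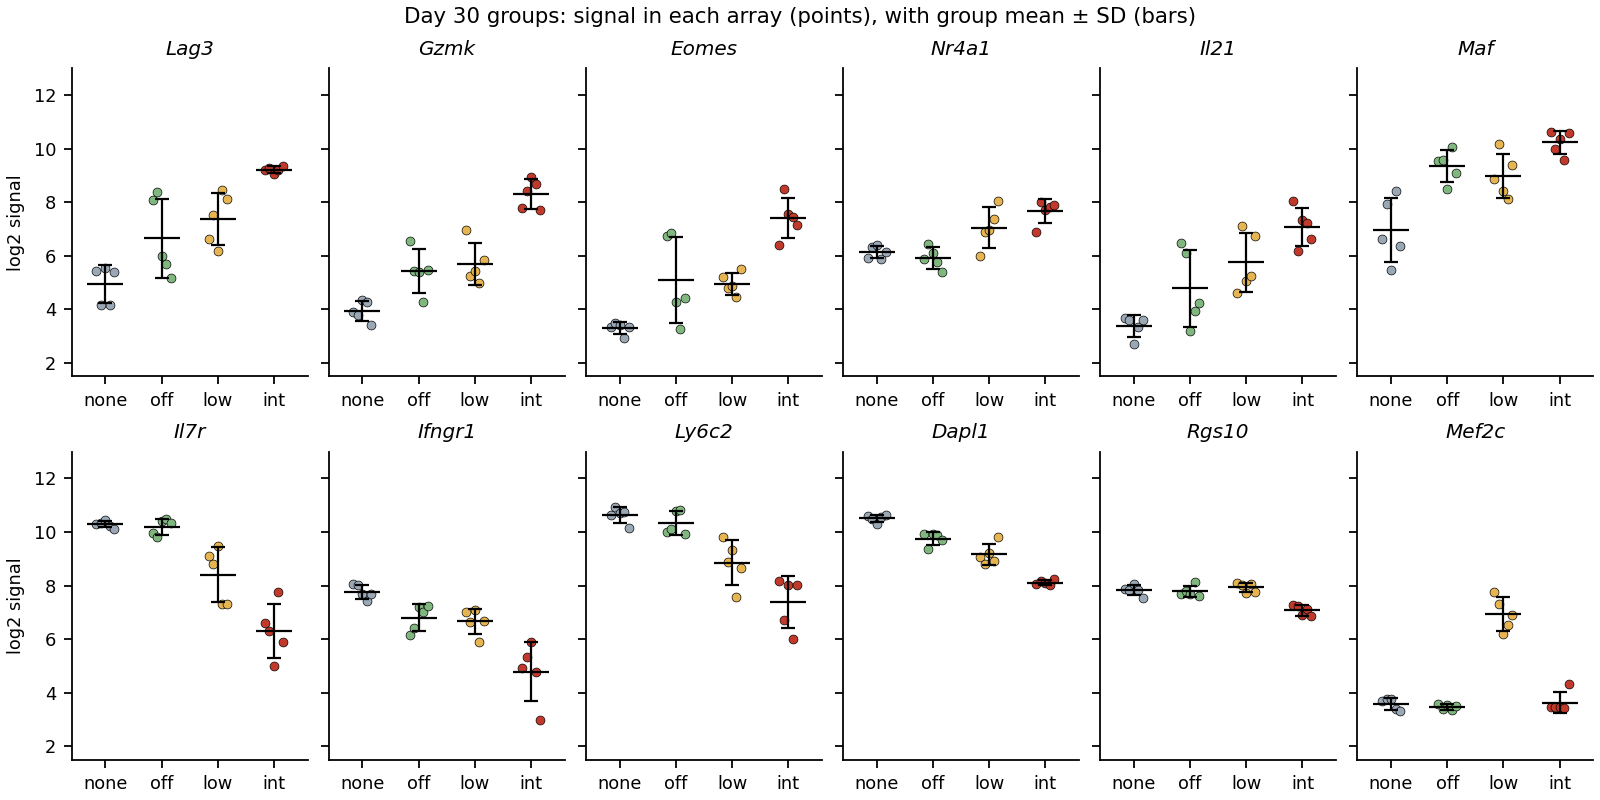
Log2 signal (vertical axis, the same in every panel) of 12 genes in each array of the 4 day 30 groups, none, off, low and int, with group means and SD as bars. Lag3, Gzmk and Eomes are highest in int, Il7r, Ifngr1 and Dapl1 lowest in int, and Mef2c is high in the low group alone.

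Most markers of other cells that a sort could carry were dim in both groups. Under a log2 level of 4.5 in all 10 arrays were 12 of 14 B cell markers and 22 of 29 myeloid and dendritic cell markers. The same held for 7 of 7 erythroid and platelet markers, 11 of 13 stromal markers and 7 of 11 markers of NK, CD8 or gamma-delta cells. The log2 of the summed signal of the B cell list ran from 8.95 to 9.4 in int and 9.55 to 9.85 in none. Ighm, the immunoglobulin M heavy chain gene, carried most of that sum and was lower in int (-0.78 ± 0.13, adjusted p = 8.93e-05), while Cd79a, the defining signalling chain of B cells, was at 3.38 ± 0.23 and 3.7 ± 0.26. Cd22, an inhibitory receptor of B cells, was at 6.13, 5.65, 5.11, 5.9 and 5.95 in int and 4.85, 4.31, 5.08, 4.52 and 4.48 in none. Every int array of Cd22 lay above every none array, but it was not called (1.1 ± 0.34, adjusted p = 0.0804). Its SD was 0.4 in int and 0.31 in none, while the SE rests on the spread within all groups. The summed myeloid signal ran from 9.4 to 9.83 in int and 9.28 to 9.77 in none, and its brightest member, the protease inhibitor Cst3, was at 8.64 ± 0.36 and 8.71 ± 0.29. The neutrophil genes S100a8 and S100a9 differed by 1.83 ± 0.79 (adjusted p = 0.288) and 1.54 ± 0.67 (adjusted p = 0.299) and were not called. The S100a8 levels were 6.75, 6.0, 3.97, 4.48 and 5.24 in int and 3.85, 2.58, 2.92, 3.32 and 4.62 in none, with int replicates 1 and 2 highest and overlap between the groups. The S100a9 levels were 5.66, 5.51, 4.33, 5.27 and 4.79 in int and 3.39, 3.15, 3.81, 3.49 and 4.02 in none, without overlap. Cd68, a lysosomal protein of macrophages, was at 5.28 ± 0.83 and 4.4 ± 0.63 and was not called (0.88 ± 0.38, adjusted p = 0.3). The macrophage marker Csf1r was at 3.18 ± 0.22 and 3.12 ± 0.22 and the pan-dendritic marker Itgax at 2.83 ± 0.33 and 2.73 ± 0.19.

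The summed signal of the NK, CD8 and gamma-delta list, whose genes bear on the cytotoxic group, ran from 7.66 to 8.92 in int and 6.94 to 7.25 in none. Eomes, which T cells express too, was its single call. The CD8 chain Cd8a was at 3.31 ± 0.42 and 3.23 ± 0.44, and the NK receptors Ncr1 and Klrb1c were at 2.89 ± 0.28 and 3.29 ± 0.35 and at 4.07 ± 0.27 and 4.09 ± 0.26. The sums of the erythroid list (5.83 to 6.06 in int, 5.85 to 6.17 in none) and of the stromal list (8.07 to 8.58, 8.11 to 8.53) overlapped between the groups. The part of other cells in the results was not tested.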

How the data were processed

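RNA of sorted CD4 T cells was hybridised to 43 single-colour arrays in 9 groups of 4 or 5; RNA was amplified and biotin-labelled per the labels' protocols. The authors deposited a log2 signal per probe set, used here unchanged. Their range (1.46 to 13.87) is the basis for taking the scale as log2. How background, summarization and normalization were done is not given in the sources used here. Amplification from little RNA and the foot of the scale can compress fold changes of dim genes.

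Of 41345 probe sets, 23521 carried 1 symbol, 1814 several and 16010 none. Each gene was represented by its brightest probe set, by mean over the 43 arrays (22180 genes, 1082 with several probe sets; 23328 of the 23521 symbols were in RefSeq's table). Limma 3.58.1 in R 4.3.3 fitted a mean per group over all arrays (lmFit, eBayes with a trend), with Benjamini-Hochberg adjustment over all genes, and a gene was called at an adjusted p under 0.05. On simulated data with 50 genes planted at each size, the test of int against none found 34 % of log2 changes of 0.5, 80 % of 1, 94 % of 1.5 and 100 % of 2. Of its 162 calls 8 were false. The simulation drew normal noise with 1 spread per gene, the same in all groups. It held no differences in spread between groups, so that these shares need not hold for the real arrays.

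Named genes are the 15 most raised and the 15 most lowered called genes, up to 6 called members of each of 35 lists (869 entries, 793 measured), up to 6 genes for each further test and genes fixed by name; predicted genes, segments of antigen receptors, histones and small RNAs were left out of the first. Other members given as not called were picked after their values were seen. The members and lists were chosen with earlier results of these data known. Alternatives changed the scaling, the variance model, the arrays, the filter, the probe set rule and the replicate block, and left out each array in turn.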

Additional observations from a re-analysis of the deposited data

Results flagged for a closer look

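In the 140 named genes, 16 of 280 groups of 5 arrays held 1 array that stood far from the other 4 by Dixon's gap test at its 95 % level, which chance passes in about 1 in 20 groups. In int these were replicate 1 for Nr4a1 (6.89) and Ptger2 (6.17), replicate 2 for Klrk1 (2.94), replicate 3 for Mki67 (5.07), replicate 4 for Hspa1a (2.54), Ncr1 (3.38) and Tnfsf4 (4.75) and replicate 5 for Mef2c (4.32). In none they were replicate 1 for Epsti1 (9.68) and Klrk1 (5.93), replicate 2 for S100a4 (5.88) and Sytl2 (4.68), replicate 3 for Srgn (8.75) and replicate 5 for Ccr4 (3.03), Myc (6.41) and Satb1 (7.13).

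The effect of intermediate antigen differed between day 30 and day 10 by the interaction test for the following genes. The log2 effect was higher on day 30 for Hspa1a by 5.29, Gzmk by 2.73, Fos by 2.33, Rabif by 2.12, Gabbr1 by 1.82, Kcnma1 by 1.73, Nlrc3 by 1.44, Piezo1 by 1.22, Esm1 by 0.90 and Tsen34 by 0.86. Of these, Gzmk, Kcnma1 and Esm1 were called higher in int than in none on day 30, and the others were not called. Hspa1a, Fos, Rabif (-1.27), Gabbr1 (-1.45), Nlrc3 (-1.13) and Piezo1 (-0.91) were called lower with antigen on day 10. The interaction was negative for Smc4 (-0.75), Rgs10 (-1.04), Il6st (-1.07), Olfr503 (-1.31), Spg20 (-1.32), Dapl1 (-1.46) and Atp1b1 (-1.68). The other 3 of the 20 genes that passed, I730030J21Rik (-3.93), Gm19585 (-1.73) and Mir344 (-0.87), were outside the rule for named genes and include the most negative value. Smc4 (0.78) and I730030J21Rik (2.90) were called higher with antigen on day 10 and not called on day 30. Esm1, Tsen34, Olfr503 and Mir344 were dim, with every group mean of this test under 4.5.

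Outside the genes tested, 120 of 16010 probe sets without a symbol were called in int against none (0.75 %; 66 higher, 54 lower) when all 41345 probe sets entered 1 fit, as were 13 of 1814 probe sets with several symbols (0.717 %; 6 higher, 7 lower). In the same fit 400 of the 23521 probe sets with 1 symbol were called (1.7 %).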

How the results depend on the processing

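Int against none gave 491 called genes as reported and from 376 (without int replicate 2) to 512 (without none replicate 3) when each array was left out in turn; 246 of the 491 (169 higher, 77 lower) stayed called without every array in turn. The count was 501 after quantile normalization, 459 with arrays centred on their median, 502 without a trend, 490 with robust variances, 334 with array quality weights, 565 among genes over 4.5 in at least 4 arrays and 486 with the mean of all probe sets. With only the groups compared in the fit, it was 292, the interaction 10, int against low 45 and int against off 35 genes; array quality weights gave 75 against low. These fits estimate the spread from fewer arrays or weight them, and the cause of the lower counts beyond that was not tested. Leaving out each array gave 14 to 25 genes for the interaction, 67 to 110 against low and 53 to 128 against off. No named result reversed: over settings that left out an array 1294 values kept their side of the threshold, 91 lost and 15 gained a call, and over the others 1192, 46 and 14. With the replicate block within each day and without the naive arrays, counts were 450 for int against none, 16 for the interaction, 94 against low and 99 against off. The correlation of deviations between samples with the same number in int and none was -0.00617 to 0.0107, so that the numbers were not taken to pair the samples. This check covered int and none alone, over all genes tested together, and does not bear on the numbers of other groups. Changes under about 2-fold were recovered in part on simulated data, and the differences of dim genes may be compressed.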
